A study of Danio rerio with 19 samples.

Results

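The miRNAs described here are miR-722 to miR-740, a run of hairpins that were first numbered in zebrafish. All probes of the custom zebrafish array whose name carries one of these numbers were taken, whatever their values, after control spots had been left out. This gave 38 probes for 17 hairpin names, among 546 probes for known miRNAs and 7604 probes in all. Each probe name carries l or r for the arm of the hairpin, and the probe number (zfmir followed by a number) is added where a hairpin arm has more than 1 probe. Probes named miR-727* fall outside the naming rule and are given only beside miR-727. miR-723 and miR-738 were not analysed here.

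The study asked which miRNAs respond to oncogenic HRAS in zebrafish, with 19 two-color arrays in 6 comparisons. kita:HRAS fish carry the driver Et(kita:Gal4TA, UAS:mCherry)hmz1, which acts in melanocytes and also in the notochord, together with the responder Tg(UAS:eGFP-HRASV12)io006, and were sampled as larvae at 3 days post-fertilization (dpf, 4 arrays), 7 dpf (3) and 14 dpf (3) and as adult tail fins with tumors (3). zic:HRAS larvae at 3 dpf (3 arrays) carry the brain driver Et(zic4:Gal4TA4, UAS:mCherry)hzm5 together with the same responder. hsp70:HRAS larvae, Tg(hsp70l:EGFP-HRASV12)io3, were taken 6 h after a 30 min shock at 37 °C at 3 dpf (3 arrays). Controls were AB wild-type larvae of the same age, heat-shocked alongside for hsp70:HRAS, and AB wild-type tail fins for the adults. A larval sample was a pool of 15 fish at 3 and 7 dpf and of 5 fish at 14 dpf, with other parents for each replicate, and an adult sample was 1 fin. The kita:HRAS and zic:HRAS fish also carry Gal4 and mCherry, which the wild-type controls do not, so an effect of these and of the oncogene cannot be told apart.

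On every array HRAS RNA was read in the green channel (Hy3) and control RNA in the red channel (Hy5). The ratio of an array is given as log2(HRAS/control), so that a positive value means more signal from HRAS fish. The dyes were never swapped, and in a ratio against 0 a dye bias of a probe and an effect of HRAS cannot be told apart. The p-values measure the spread between pools (between single fish for the fins), and 3 or 4 arrays a group limit their precision. The arrays lie on 3 slides, each scanned as 1 batch. Slide 2, which holds the adult fins and 2 of the 4 kita:HRAS arrays at 3 dpf, was the dimmest: between 48.99% and 60.07% of the spots of known probes were well above background in its HRAS channel and between 61.72% and 67.31% in its control channel, against 74.54% to 89.47% and 78.75% to 92.03% on the other slides. A probe counts as detected in a group when both of its spots were well above background on most arrays. A probe is called when its adjusted p (limma, over all known probes tested) is below 0.01 and its fold above 1.2, and it is tested when at least 1 of the channels was detected on most arrays of the comparison. Levels are compared only between arrays of the same slide, and never between probes.

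A miRNA hairpin is cut so that the strand of 1 arm usually enters the silencing complex, where bases 2 to 8 of the mature miRNA, the seed, pair with target mRNAs, while the other strand is mostly degraded. miRNA genes often lie inside or next to protein genes and may share their transcription. In the RefSeq gene table of zebrafish (assembly GRCz12tu, used for names and neighbors only) 16 of the 17 hairpins had an entry. miR-726 lies between opn1sw2 and opn1lw1, the blue and red cone opsins, and miR-729 between opn1sw1, the ultraviolet cone opsin, and tnpo3. miR-727 and miR-728 both lie within tmtopsb, a teleost multiple tissue opsin. Opsins are the light-sensing proteins of photoreceptors, and zebrafish cones mature during the first days of larval life. miR-731 lies beside miR-462, with which it forms a cluster known in fish for its induction by interferon and virus. miR-722 lies within gcgrb, a glucagon receptor gene, and is known in zebrafish as a negative regulator of neutrophil migration. miR-724 lies within cpne5b (a copine), miR-734 within epha6 (an ephrin receptor), miR-736 within myh7 (a myosin heavy chain), miR-737 within ap2m1b (a clathrin adaptor subunit) and miR-740 within vps8 (endosomal sorting). RefSeq gives the locus of miR-733 the synonym vtrna4, a vault RNA, and names that of miR-735 rny2, a Y RNA. Vault and Y RNAs are short non-coding RNAs that bind the vault particle and the Ro60 protein. No entry was found for miR-739, and whether its probes read a miRNA was not checked.

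The targets of the probes on which the results turn are printed so that arms and second probes can be compared. Each is the 22-base sequence, written 5′ to 3′ in DNA letters, to which the first stretch of the deposited probe is antisense, and capitals mark bases 2 to 8. The mature 5′ ends were not checked, so the capitals are the seed only if the mature miRNA starts where the target does. First come the miRNAs near opsin genes:
miR-726_r: tTCACTACtagcagaactcgga
miR-726_l: cTGGAATTccgctagttctgaa
miR-727_r: gTTGAGGCgagttgaagactta
miR-727_l: tCAGTCTTcaattcctcccagc
miR-728_r: aTACTAAGtacactacgttttc
miR-729_r: cATGGGTAtgatacgacctggg
The next set holds the other probes called between HRAS and control RNA, the other arm of miR-724 and both arms of miR-731:
miR-724_l: tTAAAGGGaatttgcgactgtt
miR-724_r: aCAGCCACaccttccttttaag
miR-725_r: tTCAGTCAttgtttctagtagt
miR-730_r: cACAGCGCctgcaatgtggagg
miR-731_l: aATGACACgttttctcccggat
miR-731_r: cACCGGGAacttcgtgtcagcc
miR-735_r: cTCTCCCAccgctaaacttgac
miR-737_r: aATCAAAAcctaaagaaaatac
miR-739_l zfmir450: cGGGTGGAgccgccgcgggcgc
miR-739_l zfmir449: cGCGGGCGcagatcttggtggt
The last set shows probes of 1 arm that share or shift their target:
miR-722_l zfmir120: aATTTGAAacgttttggccaaa
miR-722_l zfmir512: aATTTGAAacgttttagccaaa
miR-733_l zfmir348: tTGCGTTGgtttagctcagtgg
miR-733_l zfmir347: tGCGTTGGtttagctcagtggt

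miR-722_r, miR-724_l and miR-724_r each have a pair of probes with identical targets, which are therefore 2 readings of the same RNA and not 2 miRNAs. The targets of the miR-722_l probes share bases 2 to 8 and differ by G16A, counted from the 5′ end with the base of zfmir120 first. The targets of the miR-733_l probes are shifted by 1 base and share 21 bases. The miR-739_l probes have different targets: the last 9 bases of the zfmir450 target are the first 9 of the zfmir449 target. The miR-736_r probes zfmir401 and zfmir402 have different targets, so zfmir402 is not a second reading of the RNA that zfmir401 reads. No other probes of the set share bases 2 to 8. Over arrays on which both probes of a pair were detected in both channels, the log2 ratios of a pair differed by a median of 0.052 for miR-722_r (14 arrays), 0.073 for miR-724_l (15), 0.19 for miR-724_r (6) and 0.086 for miR-733_l (16). The miR-739_l probes differed by a median of 0.194 and by up to 1.591 over all 19 arrays, so these probes did not read the same ratio on every array.

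In both channels of every larval group 7 probes were detected, those of miR-729_r beside the ultraviolet opsin, miR-724_l (2), miR-735 (2) and miR-739_l (2), and fewer were detected in tumor fins than in control fins, as also held for the other known probes (52.8% against 61.4%). Of the 38 probes, 7 were detected in kita:HRAS larvae and 11 in their controls at 3 dpf, 29 in both at 7 dpf, 27 in both at 14 dpf, and 8 in kita:HRAS tumor fins against 17 in control fins. The counts were 23 in zic:HRAS larvae and 21 in their controls, and 21 in hsp70:HRAS larvae and 22 in their controls. As shares these were 18.4% and 28.9% at 3 dpf, 76.3% in both at 7 dpf, 71.1% in both at 14 dpf, and 21.1% in tumor fins against 44.7% in control fins. The 508 other known probes were detected more widely in every group, from 52.8% in tumor fins to 88.2% in kita:HRAS larvae at 7 dpf. The low counts at 3 dpf in kita:HRAS go with the slides: a single array of this group detected between 5 and 22 of the 38 in its HRAS channel and between 8 and 28 in its control channel, and 2 of the 4 arrays lie on slide 2. The dim slide also holds the fins, so a lower number in fins than in larvae of other slides cannot be told apart from the slide. Tumor and control fins were read in different channels, so a lower number in tumor fins cannot be told apart from the channel.

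The same 4 probes were detected on every array in both channels, those of miR-735_l, miR-735_r and the 2 of miR-739_l. Their targets had between 54.5% and 90.9% G and C (median 70.4%). The 8 probes detected on no array in either channel were miR-722_l zfmir120, miR-729_l, miR-732_r, miR-734_l, miR-736_r zfmir402, miR-737_l, miR-740_l and miR-740_r, with 18.2% to 54.5% G and C (median 47.8%), and the other 26 had 22.7% to 63.6% (median 45.5%). Both probes of miR-740 were thus below background throughout, and miR-729, miR-732, miR-734 and miR-737 were each read through 1 arm. The miR-722_l probe that differs from the undetected one by G16A was detected in kita:HRAS larvae at 7 dpf and in their controls. In larvae 30 probes were detected in at least 1 group, in fins 17, and 0 probes were detected in a fin without being detected in a larval group. Of the 17, 8 were detected in both fins (miR-731_l, miR-737_r and the probe pairs of miR-733_l, miR-735 and miR-739_l), and 9 in control fins only, namely miR-731_r, miR-730_l, miR-730_r, miR-725_l, miR-725_r and the probe pairs of miR-722_r and miR-724_l. Overlaps between groups, here and in the preceding paragraph, were not counted for the other known probes, so they do not set these probes apart. Detection in control fins only cannot be told apart from a dimmer green channel. On the 2 larval arrays of slide 2, 60.07% and 49.08% of the known spots were well above background in green, against 63.46% and 67.31% in red.

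**Figure D1:**
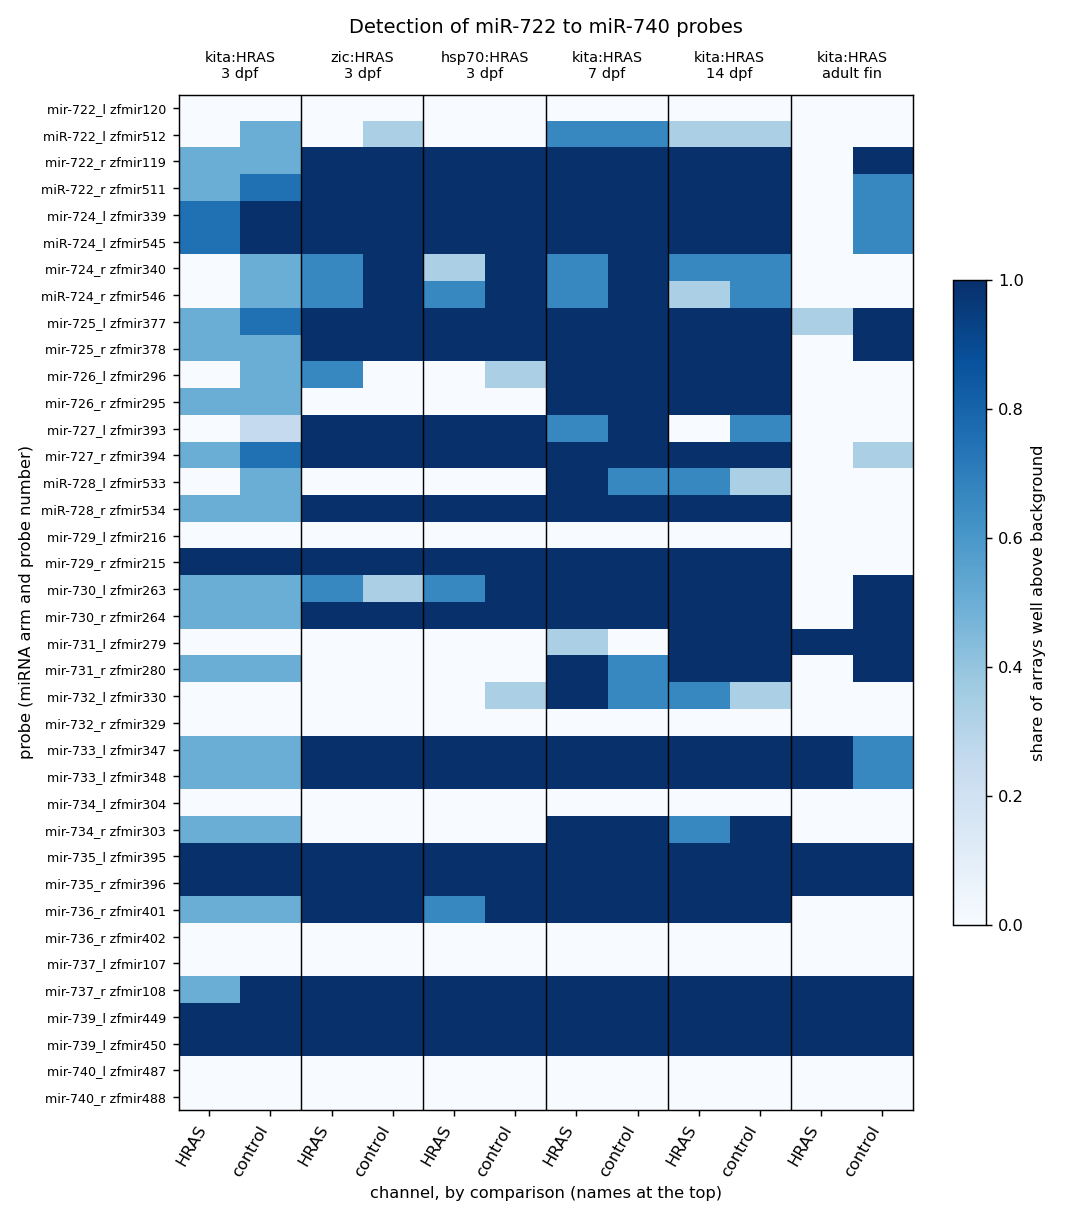
Share of arrays (color, 0 to 1) on which each of the 38 probes (rows) was well above background, with the HRAS channel left of its control channel for the 6 comparisons (columns). The probes of miR-735 and miR-739_l are dark throughout, 8 rows are empty, and 9 probes were detected in control fins (on most arrays) but not in tumor fins.

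In wild-type control larvae 6 of the 8 probes of miR-726 to miR-729, the hairpins near opsin genes, were called higher at 7 than at 3 dpf. 7 of the 8 were tested, and of the 505 known probes tested 32.7% were called higher. miR-729_r and miR-726_r had the largest increases of the set. Of the 8, miR-727_l missed the threshold and miR-729_l was not detected. miR-729_r had 6.85-fold more signal at 7 dpf, miR-726_r 3.26-fold, miR-726_l 2.42-fold, miR-728_r 2.13-fold and miR-727_r 1.67-fold. These levels are log2 control signals of slide 1, background-corrected with an offset and scaled between its arrays, which draws dim probes together and understates their folds. miR-729_r measured 7.71 and 8.00 at 3 dpf, 10.61, 10.64 and 10.63 at 7 dpf, and 10.57, 10.62 and 10.48 at 14 dpf. All 7 dpf and 14 dpf values were above both 3 dpf values, and those of 7 and 14 dpf overlapped. The difference between 7 and 3 dpf was 2.78 (SE 0.088, adjusted p = 3.6e-08 by limma), and that between 14 and 7 dpf was -0.07 (adjusted p = 0.47). miR-726_r measured 6.73 and 6.93 at 3 dpf, 8.51, 8.52 and 8.58 at 7 dpf, and 8.24, 8.56 and 8.38 at 14 dpf. It was higher at 7 dpf by 1.70 (SE 0.10, adjusted p = 2.6e-06) and differed by -0.14 between 14 and 7 dpf (adjusted p = 0.22). The other arm, miR-726_l, measured 6.41 and 6.59 at 3 dpf, 7.77, 7.72 and 7.83 at 7 dpf, and 7.50, 7.35 and 7.33 at 14 dpf. It rose by 1.27 to 7 dpf (SE 0.081, adjusted p = 3.6e-06) and was lower again at 14 dpf, by -0.38 against 7 dpf (SE 0.073, adjusted p = 0.0031; 0.014 to 0.016 without 14 dpf control replicate 3 or 7 dpf control replicate 1 or 3). Both arms of miR-726 therefore passed the test in the same direction at 7 dpf. In the 3 dpf larvae of slide 3 miR-726_r was detected in neither channel.

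The tmtopsb pair moved up and then part of the way back. miR-728_r measured 7.75 and 7.91 at 3 dpf, 8.93, 8.99 and 8.85 at 7 dpf, and 8.29, 8.35 and 8.36 at 14 dpf, a difference of 1.09 to 7 dpf (SE 0.073, adjusted p = 4.5e-06) and of -0.59 to 14 dpf (SE 0.065, adjusted p = 0.00017). miR-727_r measured 7.09 and 7.15 at 3 dpf, 7.78, 7.93 and 7.88 at 7 dpf, and 7.42, 7.32 and 7.38 at 14 dpf, which gave 0.74 (SE 0.067, adjusted p = 2.8e-05) and -0.49 (SE 0.060, adjusted p = 0.00029). For both, the 14 dpf values lay between those of the younger ages without overlap. The miR-727*_r probe, whose target overlaps that of miR-727_r, gave 0.91 (adjusted p = 9.3e-06) and -0.60 (adjusted p = 9.5e-05). The other arm miR-728_l measured 6.45 and 6.55 at 3 dpf, 6.82, 6.75 and 6.82 at 7 dpf, and 6.49, 6.70 and 6.62 at 14 dpf, where 6.75 at 7 dpf and 6.49 and 6.62 at 14 dpf were not well above background, and differed by 0.30 to 7 dpf (SE 0.076, adjusted p = 0.0081). This last call was lost when any 1 array of either age was left out (adjusted p between 0.015 and 0.071). miR-727_l differed by 0.44 to 7 dpf and missed the threshold (adjusted p = 0.014). Between 14 and 7 dpf miR-728_l differed by -0.19 (adjusted p = 0.045) and miR-727_l by -0.23 (adjusted p = 0.12), neither called.

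miR-724_l rose by a like amount and was read by 2 probes of the same target. The zfmir545 probe measured 7.65 and 7.76 at 3 dpf, 9.07, 9.11 and 8.97 at 7 dpf, and 8.45, 8.43 and 8.59 at 14 dpf. The zfmir339 probe measured 7.45 and 7.62, then 8.90, 8.92 and 8.79, then 8.58, 8.37 and 8.44 at the same ages. Neither probe had overlapping ages. The differences were 1.35 (SE 0.075, adjusted p = 1.7e-06) and 1.33 (SE 0.088, adjusted p = 4.4e-06) between 7 and 3 dpf, and -0.56 (SE 0.067, adjusted p = 0.00026) and -0.40 (SE 0.079, adjusted p = 0.0034) between 14 and 7 dpf. Without the 14 dpf control replicate 3, or the 7 dpf control replicate 1 or 2, the zfmir339 probe missed the threshold in the second step (adjusted p between 0.014 and 0.017). The other arm, miR-724_r, was not called in either step. Its probes zfmir340 and zfmir546 differed by 0.22 and 0.26 to 7 dpf (adjusted p = 0.17 and 0.085). To 14 dpf they differed by -0.25 and -0.21 (adjusted p = 0.12 and 0.13). With the 2 dim controls of slide 2 added to those of 3 dpf, the first step was 0.77 for zfmir545 (adjusted p = 0.014) and 0.57 for zfmir339 (adjusted p = 0.15), while miR-729_r (1.83), miR-728_r (1.56), miR-726_r (1.30), miR-726_l (1.15) and miR-727_r (0.59) kept their calls.

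Smaller increases to 7 dpf were called for the vault RNA miR-733, the Y RNA miR-735_l, miR-734_r, miR-732_l, miR-730_r and miR-722_r. The miR-733_l probes measured 6.87 and 6.85 (zfmir348) and 7.08 and 6.97 (zfmir347) at 3 dpf, 7.58, 7.39 and 7.75 and 7.69, 7.67 and 7.82 at 7 dpf, and 7.18, 7.17 and 7.46 and 7.38, 7.34 and 7.61 at 14 dpf. They gained 0.72 (SE 0.12, adjusted p = 0.0010; 0.011 without the 3 dpf control replicate 2) and 0.70 (SE 0.094, adjusted p = 0.00024). miR-735_l measured 8.54 and 8.52 at 3 dpf, 9.18, 8.94 and 9.28 at 7 dpf, and 9.18, 9.23 and 9.12 at 14 dpf, a gain of 0.61 to 7 dpf (SE 0.097, adjusted p = 0.00069). The other arm miR-735_r differed by 0.04 (adjusted p = 0.72), so the arms of this Y RNA locus were not both called. miR-734_r measured 6.55 and 6.71, then 7.12, 7.01 and 7.19, then 6.62, 6.66 and 6.66 at 3, 7 and 14 dpf. It was higher at 7 dpf by 0.48 (SE 0.074, adjusted p = 0.00061) and lower at 14 dpf than at 7 dpf by -0.46 (SE 0.067, adjusted p = 0.00070).

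Of these, miR-732_l measured 6.25 and 6.38 at 3 dpf, both not well above background, 6.91, 6.56 and 6.84 at 7 dpf, of which the second was not, and 6.63, 6.50 and 6.49 at 14 dpf. It was at least 1.342-fold higher at 7 dpf (adjusted p = 0.0055; 0.049 and 0.018 without 3 dpf control replicate 1 and 2, and not tested without 7 dpf control replicate 1 or 3), where the bound is the mean of the measured group over the lowest detected signal of the arrays that did not measure it. miR-732_l was tested through the 7 dpf controls alone, so the filter sets its direction. miR-730_r measured 7.01 and 7.08, then 7.51, 7.37 and 7.43, then 7.34, 7.01 and 7.17, a gain of 0.40 to 7 dpf (SE 0.098, adjusted p = 0.0069). Its other arm miR-730_l measured 7.21 and 7.37, then 7.65, 7.73 and 7.71, then 7.34, 7.06 and 7.44. That arm gained 0.41 to 7 dpf (adjusted p = 0.011) and was lower at 14 dpf than at 7 dpf by -0.41 (SE 0.10, adjusted p = 0.0091). Over the later step miR-730_r differed by -0.26 (adjusted p = 0.036) and was not called. The probes of miR-722_r, the neutrophil regulator, measured 7.23 and 7.43 (zfmir511) and 7.28 and 7.48 (zfmir119) at 3 dpf, 7.67, 7.63 and 7.64 and 7.68, 7.72 and 7.67 at 7 dpf, and 7.57, 7.56 and 7.51 and 7.58, 7.62 and 7.53 at 14 dpf. Each gained 0.31 to 7 dpf (SE 0.070 and 0.073, adjusted p = 0.0042 and 0.0051). On the other arm, miR-722_l zfmir512 differed by -0.11 to 7 dpf (adjusted p = 0.30) and was not called. The calls of miR-730_r and miR-722_r were lost when single arrays were left out: any of the 5 for miR-730_r (adjusted p between 0.011 and 0.051), 7 dpf control replicate 1 or 3 or 3 dpf control replicate 1 for zfmir511 (0.014 to 0.038), and any but 3 dpf control replicate 2 for zfmir119 (0.015 to 0.047). The call of miR-730_l at 14 dpf was lost without any 1 of the 7 dpf controls (0.026 to 0.030).

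1 probe of the set was called lower at 7 than at 3 dpf, and miR-731_l, miR-736_r and miR-737_r were called in the later step only. miR-739_l zfmir449 measured 11.75 and 11.51 at 3 dpf, 10.771, 10.695 and 10.745 at 7 dpf, and 11.42, 11.03 and 11.38 at 14 dpf. It differed by -0.89 between 7 and 3 dpf (SE 0.12, adjusted p = 0.00032) and by 0.54 between 14 and 7 dpf (SE 0.11, adjusted p = 0.0048). The second difference missed the threshold without 14 dpf control replicate 3 or any 1 of the 7 dpf controls (adjusted p between 0.016 and 0.022). The other miR-739_l probe, zfmir450, was not called in either step. It differed by 0.11 between 7 and 3 dpf (adjusted p = 0.32) and by 0.24 between 14 and 7 dpf (adjusted p = 0.053). miR-731_l was not well above background at 3 dpf (6.25 and 6.28) or 7 dpf (6.51, 6.31 and 6.50) and measured 7.25, 6.86 and 7.06 at 14 dpf. It was at least 1.383-fold higher at 14 than at 7 dpf (difference 0.61, SE 0.10, adjusted p = 0.0016). It was tested through the 14 dpf controls alone, so the filter sets its direction. Its cluster partner miR-462_l gained 0.51 between 3 and 7 dpf (adjusted p = 0.0034) and a further 0.85 between 7 and 14 dpf (adjusted p = 0.00022). The other arm, miR-731_r, differed by 0.04 in either step (adjusted p = 0.63 in both) and was not called. miR-736_r zfmir401, in the myosin gene myh7, measured 8.53 and 8.62 at 3 dpf, 8.75, 8.84 and 8.89 at 7 dpf, and 8.10, 8.41 and 8.24 at 14 dpf, a loss of -0.58 between 7 and 14 dpf (SE 0.085, adjusted p = 0.00076). miR-737_r measured 8.83 and 8.96, then 8.32, 8.27 and 8.29, then 8.60, 9.34 and 8.99 at 3, 7 and 14 dpf. It differed by -0.60 between 7 and 3 dpf without passing the threshold (adjusted p = 0.017). It was higher at 14 than at 7 dpf by 0.68 (SE 0.16, adjusted p = 0.0086). That call was lost without 14 dpf control replicate 3 or any 1 of the 7 dpf controls (0.027 to 0.031).

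**Figure D2:**
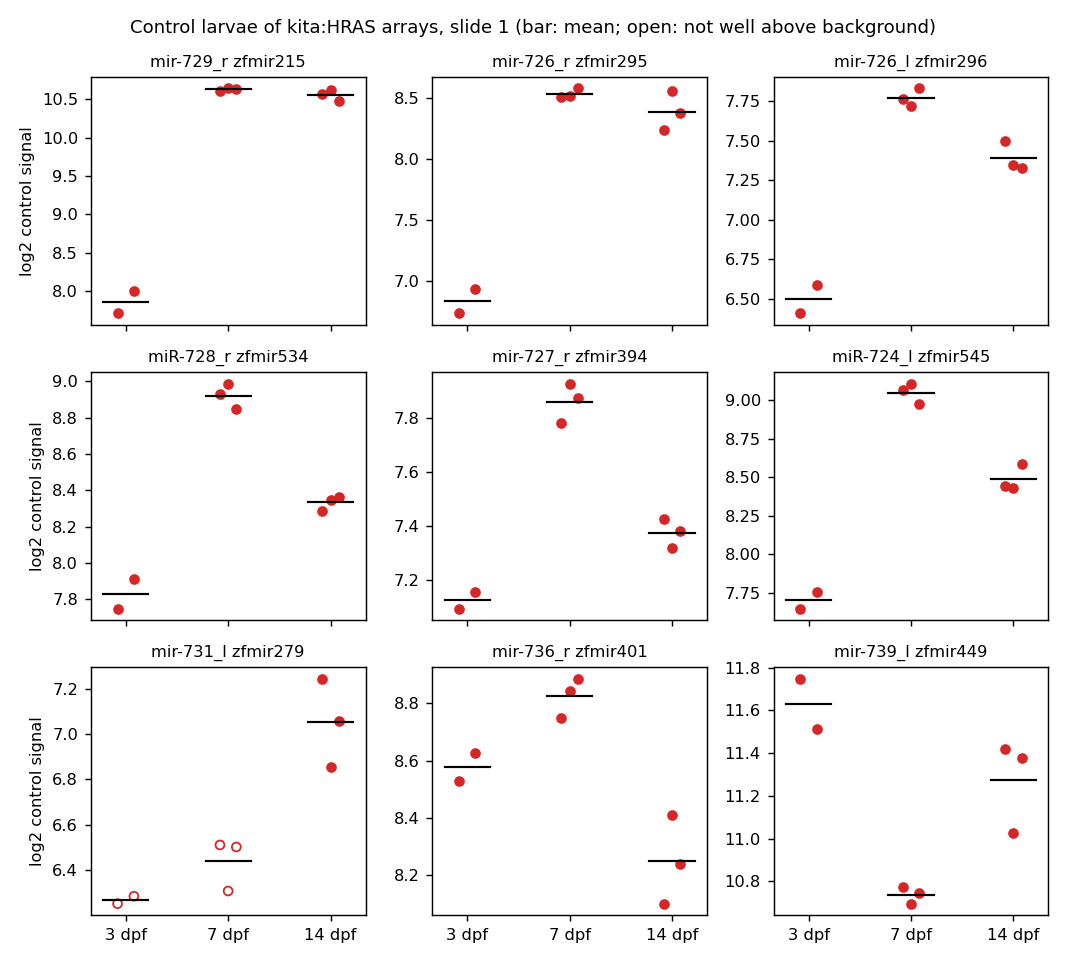
Log2 control signal of 9 probes in wild-type control larvae of slide 1 at 3, 7 and 14 dpf (points: arrays, bars: group means, open points: not well above background, axes differ between panels and do not start at 0). miR-729_r lies between 7.71 and 8.00 at 3 dpf and between 10.48 and 10.64 at the later ages, and miR-731_l is measured only at 14 dpf.

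Counted over the set, 17 of 29 tested probes were called between 7 and 3 dpf (58.6%, against 59.0% of the 505 known probes tested), 16 of them higher at 7 dpf (55.2%, against 32.7% of the known probes) and 1 lower. Their median difference was 0.40, against 0.02 over all known probes. Between 14 and 7 dpf 11 of 30 were called (36.7%, against 36.8% of known probes), 8 of them lower at 14 dpf (26.7%, against 24.8%) and 3 higher, with a median of -0.20 against -0.03. The filter sets the direction of miR-732_l among the 16 higher at 7 dpf and of miR-731_l among the 3 higher at 14 dpf. Without 1 of the 7 dpf controls the count between 14 and 7 dpf was 6 or 7. The counts of calls thus lay near the background and only the share called higher at 7 dpf lay above it. The split depends on the scaling. With the deposited red signal centered on the 75th percentile of each array, the median of the known probes moved to -0.43 for 7 over 3 dpf and to 0.28 for 14 over 7 dpf. The calls were then 10 higher and 4 lower at 7 dpf, and 7 higher and 0 lower at 14 dpf, miR-722_r had slightly negative differences at 7 dpf, and miR-724_l zfmir339 and miR-726_l slightly positive ones at 14 dpf. The known probes were not counted by direction under this scaling. Whether the share called higher at 7 dpf still lay above theirs was not tested. Whole larvae were measured, so more cells of a type and more RNA per cell cannot be told apart here or in any other result. Between 7 and 3 dpf 28 of 33 tested early embryo probes (miR-430) were lower, 15 of 22 brain probes (miR-9 and miR-124) were lower and 6 higher, and 5 of 7 leukocyte probes (miR-142, miR-150, miR-155 and miR-223) were higher. All 4 erythroid probes (miR-144 and miR-451), 7 of 16 muscle probes (miR-1, miR-133 and miR-206) and 1 of 6 skin probes (miR-203 and miR-205) were lower. Between 14 and 7 dpf 28 of 33 early embryo probes and 4 of 22 brain probes were lower, 4 of 16 muscle probes were higher and 2 lower, 2 of 7 leukocyte probes were higher and 1 lower, 2 of 6 skin probes were higher, and of 4 erythroid probes 1 was higher and 1 lower. Their part in the differences was not tested.

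Fins were set against larvae on slide 2, where control fins and 2 controls at 3 dpf lie together. miR-729_r was not well above background in control fins (6.16, 6.13 and 6.21) and measured 7.02 and 7.23 in 3 dpf control larvae. It was at least 1.840-fold lower in fins (difference -0.96, SE 0.12, adjusted p = 0.0013; 0.012 without 3 dpf control replicate 4), the only probe called of the 18 tested (5.56%, against 50.9% of 391 known probes). At an unadjusted p below 0.05 there were 5 of the 18 (27.8%), against 70.6% of the known probes. Without control fin replicate 3 there were 7 calls, 6 higher and 1 lower in fins. That array had 547 spots flagged as outliers, against 24 to 68 on every other array. miR-731_l ran the other way from miR-729_r. It measured 8.18, 8.05 and 6.86 in control fins and was not well above background in the larvae (6.12 and 6.14), at least 2.714-fold higher in fins without passing the threshold (difference 1.57, SE 0.43, adjusted p = 0.025). Fins and larvae did not overlap. miR-462_l, beside miR-731_l in the genome, was higher in fins by 3.35 (adjusted p = 0.0024). miR-731_l and miR-462_l were well above background in the fins and not in these larvae, and miR-729_r the reverse. Each was tested through 1 group alone, so the filter sets the direction of these differences. The median difference of the set was 0.17, against 0.01 for all known probes. On the deposited red signal scaled to the 75th percentile that median of all known probes was -1.49, and 8 probes of the set were called, 1 higher and 7 lower in fins. The known probes were not counted by direction under this scaling. Of the marker probes, 21 of 22 brain and 17 of 22 early embryo probes were called lower in fins, against 115 of the 391 known probes. Called higher were 5 of 13 muscle, 1 of 5 skin and 1 of 3 erythroid probes. Of 6 leukocyte and 6 pigment cell probes 0 were called. Their part in the differences was not tested.

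Heat shock was not followed by a called change in control larvae. Between heat-shocked and unshocked controls at 3 dpf, both on slide 3, 0 of 22 tested probes of the set were called, and 0.0% of the 441 known probes tested were (limma). An unadjusted p below 0.05 was reached by 7 of the 22 (31.8%), against 17.9% of known probes. The smallest adjusted p was that of miR-725_r, which measured 10.15, 10.49 and 10.42 in heat-shocked controls and 9.48, 9.82 and 9.80 in unshocked controls, a difference of 0.65 (SE 0.12, adjusted p = 0.032).

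In HRAS larvae at 3 dpf 1 probe of the set was called over the 3 models, in hsp70:HRAS. In kita:HRAS 0 of 11 tested probes were called (2.24% of 357 known probes), and in zic:HRAS 0 of 23 (1.13% of 442). By limma's unadjusted p below 0.05 there were 3 in each, against 31.7% and 24.9% of the known probes. The medians were -0.03 and 0.01, against -0.04 and 0.01 over all known probes. Among the miRNAs near opsin genes, the ratios of miR-729_r were 0.52, -0.25, -0.43 and 0.04 in kita:HRAS and -0.02, 0.33 and 0.31 in zic:HRAS, with both signs in each model.

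In hsp70:HRAS larvae 3 of 22 tested probes reached an unadjusted p below 0.05 by limma (13.6%, against 25.3% of known probes). Of the 22, 1 was called (4.55%, against 8.66% of 439 known probes). It was miR-735_r, from the Y RNA locus, with log2 ratios of -0.53, -0.21 and -0.58, all below 0 (mean -0.44, SE 0.09, adjusted p = 0.0055, 0.737 times the control signal). The call was lost without replicate 1 (adjusted p = 0.051) or replicate 3 (0.062), and there were 0 calls with this comparison fitted alone or with the slide as a random block. The other arm, miR-735_l, had ratios of -1.50, -0.26 and -0.03 in hsp70:HRAS and was not called (mean -0.59, adjusted p = 0.15). In zic:HRAS the ratios of miR-735_r were 0.18, 0.19 and 0.08, and in kita:HRAS at 3 dpf -0.03, 0.15, -0.30 and 0.07. The F test between the 3 models gave an adjusted p of 0.028 for this probe, above the threshold of 0.01. It called 0 of the 11 tested probes of the set (2 at an unadjusted p below 0.05), against 0.571% of 350 known probes.

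At 7 dpf a probe of miR-739_l, a name without a gene entry, was the only one of the set called in kita:HRAS larvae. Of 29 tested probes 1 was called (3.45%, against 2.69% of 483 known probes), and 4 had an unadjusted p below 0.05 (13.8%, against 18.6% of known probes). miR-739_l zfmir450 had ratios of 0.65, 0.69 and 0.59 (mean 0.64, SE 0.11, adjusted p = 0.0034, 1.56-fold). It missed the threshold when any 1 of the 3 arrays was left out (adjusted p between 0.012 and 0.038), and there were 0 calls with this comparison fitted alone or with the slide as a random block. The second probe, zfmir449, had 0.84, 0.84 and 1.07 (mean 0.92, SE 0.22, adjusted p = 0.024, not called). All 6 values were above 0. The miR-724_r probes, uncalled at this age, had means of -1.14 (zfmir340, adjusted p = 0.024) and -1.05 (zfmir546, adjusted p = 0.012), larger in size than those of miR-739_l. In control larvae zfmir449 was also the only probe called lower at 7 than at 3 dpf, and zfmir450 was not called, as given above. 3 of 6 pigment cell probes (all of miR-204) and 3 of 4 erythroid probes were higher in kita:HRAS larvae at 7 dpf, and their part in the result was not tested.

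At 14 dpf 6 of 29 probes were called in kita:HRAS larvae (20.7%, against 25.1% of 487 known probes), 4 lower (13.8%, against 22.4% of known probes called lower) and 2 higher. Without replicate 1, 2 or 3 there were 1, 0 and 4 calls, with the slide as a random block 1, and with this comparison fitted alone 0. The median of the set was -0.16, as was that of all known probes, so the set did not stand apart from the rest. Both higher probes were those of miR-739_l. zfmir449 had ratios of 0.92, 1.28 and 1.09 (mean 1.10, SE 0.22, adjusted p = 0.0020, 2.14-fold; 0.026 without replicate 2). zfmir450 had 0.37, 0.45 and 0.45 (mean 0.42, SE 0.11, adjusted p = 0.0088, 1.34-fold), and lost its call without any 1 of the arrays (0.030 to 0.061).

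The lower probes were those of miR-724_r, miR-737_r and miR-727_l. The identical miR-724_r targets gave -1.82, -1.30 and -0.14 with zfmir340 (mean -1.09, SE 0.27, adjusted p = 0.0067; 0.080 and 0.065 without replicate 1 and 2) and -0.93, -1.05 and -0.99 with zfmir546 (mean -0.99, SE 0.22, adjusted p = 0.0034; 0.015 without replicate 3, and not tested without replicate 1 or 2). At 14 dpf zfmir546 was well above background in 1 of 3 kita:HRAS samples and 2 of 3 controls. It passed the filter through its control channel, which favors a ratio below 0. At 7 dpf the miR-724_r probes had -0.98, -1.91 and -0.53 (zfmir340, adjusted p = 0.024) and -0.67, -1.73 and -0.76 (zfmir546, adjusted p = 0.012). All 12 values were below 0. So were those of both probes in kita:HRAS at 3 dpf (means -0.70 and -0.67) and in tumor fins (-1.06 and -0.53), where they were not tested. Their means were also below 0 in zic:HRAS (-0.24 and -0.26) and hsp70:HRAS (-0.16 and -0.32), not called. The signal of this arm was near background: the mean log2 levels at 14 dpf were 6.60 in kita:HRAS larvae against 6.83 in controls for zfmir340, and 6.64 against 6.85 for zfmir546. On that scale the differences were -0.22 and -0.21 (adjusted p = 0.035 and 0.018). The other arm, miR-724_l, had ratios of -0.14, -0.51 and -0.35 (zfmir339) and -0.17, -0.42 and -0.39 (zfmir545) at 14 dpf, and neither probe was called (adjusted p = 0.035 and 0.12).

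miR-737_r, in a clathrin adaptor gene, had -0.81, -2.01 and -0.63 at 14 dpf (mean -1.15, SE 0.28, adjusted p = 0.0056). Without replicate 1 the adjusted p was 0.013 and without replicate 2 it was 0.091. At 7 dpf it had -0.15, 0.07 and -0.23, and at 3 dpf -0.51, -0.60, 0.02 and -1.71. miR-727_l was not detected in kita:HRAS larvae at 14 dpf and was detected in 2 of 3 controls, with ratios of -1.81, -1.09 and -0.76 (mean -1.22, SE 0.28, adjusted p = 0.0044). It was tested through its control channel alone, so its direction is set by the filter, and without replicate 1 or 2 it was not tested. By its signals it was at least 1.154-fold lower. The miR-727*_l probe, of the same target as miR-727_l, had -1.06, -1.40 and -0.86 and missed the threshold (adjusted p = 0.018). The other arm, miR-727_r, had 0.00, -0.23 and -0.21. miR-729_r had -0.33, -0.28 and -0.28 (mean -0.30, adjusted p = 0.26) and miR-726_r -0.44, -1.08 and -0.49 (mean -0.67, adjusted p = 0.061), neither called. Beside these values, 3 of 6 skin, 11 of 22 brain and 11 of 31 early embryo probes were lower in kita:HRAS larvae at 14 dpf. Also lower were 7 of 16 muscle and 1 of 7 leukocyte probes. Called higher were 3 of 6 pigment cell, 1 of 4 erythroid and 1 of 16 muscle probes. Their part was not tested.

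The F test over 3, 7 and 14 dpf in kita:HRAS, in which a constant dye bias cancels, called 0 of 11 probes (1 at an unadjusted p below 0.05), against 1.98% of 353 known probes. Its smallest adjusted p was 0.045, for miR-739_l zfmir449, whose ratios at 3 dpf were 0.08, 0.74, -0.97 and 0.18. The 2 low-signal arrays at 3 dpf, on slide 2, gave the last 2 of these values.

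**Figure D3:**
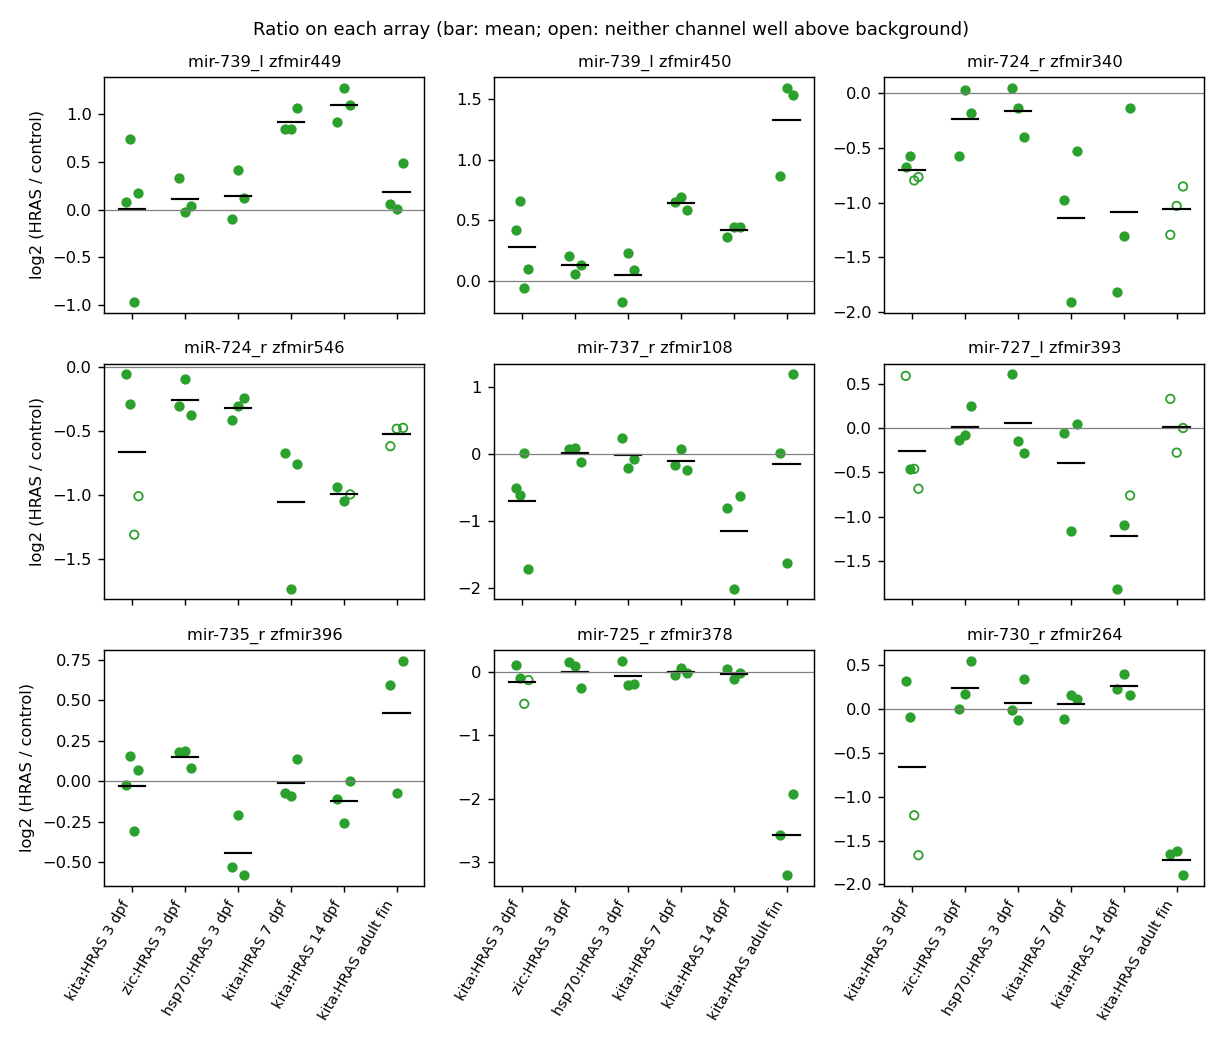
Log2(HRAS/control) on each array for the 9 probes called between HRAS and control RNA, in 6 comparisons from kita:HRAS at 3 dpf to adult fins (points: arrays, bars: group means, open points: neither channel well above background, grey line: 0). The miR-739_l probes lie above 0 on all arrays of 7 and 14 dpf, the miR-724_r probes below 0 on all of them, and miR-725_r and miR-730_r are low in adult fins.

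In tumor fins miR-725_r and miR-730_r were called, both lower than in control fins. Of the 17 tested probes 9 were detected in control fins only, which sets the direction of their ratios, so the number of probes below 0 says nothing of the set. The 2 calls (11.8% of the 17, against 7.55% of 331 known probes called and 3.63% called lower) are among these 9. miR-725_r had ratios of -2.57, -3.21 and -1.93 (mean -2.57, SE 0.30, adjusted p = 0.0069). miR-730_r had -1.65, -1.62 and -1.89 (mean -1.72, SE 0.18, adjusted p = 0.0055). Neither was well above background in any tumor fin, and both were in all 3 control fins, so the size of these ratios is not measured. Mean log2 levels of miR-725_r were 6.19 in tumor fins against 6.74 in control fins, and those of miR-730_r were 6.19 against 6.44, which makes miR-725_r at least 1.403-fold lower in tumor fins and miR-730_r at least 1.158-fold. Without replicate 1 both calls were lost (adjusted p = 0.081), without replicate 2 or 3 there were 9 and 8 calls in the set, and on background-corrected signals with an offset the differences were -0.54 (adjusted p = 0.095) and -0.25 (0.19). Replicate 3 is the array with 547 outlier spots.

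The larval ratios of both are given beside these. miR-725_r lay between -0.25 and 0.18 on the 12 arrays of zic:HRAS, hsp70:HRAS and kita:HRAS at 7 and 14 dpf, where it was detected in both channels. miR-730_r lay between -0.12 and 0.55 on them. On the kita:HRAS arrays at 3 dpf, miR-730_r had 0.32 and -0.09 on slide 1, and -1.21 and -1.67 on slide 2, the slide of the fins, where neither channel was well above background. miR-725_r had 0.11 and -0.09 on slide 1, and -0.50 and -0.12 on slide 2, again with neither channel above background there. The slide 2 larval ratios of miR-730_r were thus close to those of the fins. Whether fin and larval ratios differ was not tested. The other arms gave -2.14, -1.11 and -1.87 in tumor fins for miR-730_l (adjusted p = 0.013, at least 1.184-fold lower) and -0.20, -1.27 and 0.07 for miR-725_l (adjusted p = 0.26). miR-730_l was well above background in no tumor fin, so the filter sets its direction too.

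Both arms of miR-731 had ratios below 0 in every tumor fin without passing the threshold. The ratios of miR-731_r were -2.11, -4.31 and -2.34 (mean -2.92, SE 0.48, adjusted p = 0.013), with no tumor fin and all 3 control fins well above background, at least 1.493-fold lower. The filter thus sets the direction of miR-731_r, which could not differ from that of the other arm. miR-731_l, detected in all 3 tumor fins and all 3 control fins, had -2.52, -3.92 and -1.42 (mean -2.62, SE 0.50, adjusted p = 0.017), with mean log2 levels of 6.57 in tumor fins against 7.85 in control fins. Its neighbor miR-462_l had -2.13, -4.29 and -1.06 (mean -2.50, SE 0.64, adjusted p = 0.034) on the same arrays. In all 3 of these probes, replicate 2 was the lowest. In kita:HRAS larvae at 14 dpf miR-731_l had 0.47, 0.44 and 0.09 and miR-462_l 0.25, 0.20 and 0.19, above 0 on each array but not called (adjusted p = 0.25 and 0.44).

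The probes of miR-724_l and miR-722_r were below 0 in every tumor fin as well. miR-724_l had -2.36, -1.55 and -1.12 (zfmir339, adjusted p = 0.014) and -0.97, -1.44 and -1.44 (zfmir545, adjusted p = 0.013). miR-722_r had -1.24, -0.78 and -1.38 (zfmir119, adjusted p = 0.016) and -0.97, -1.09 and -1.02 (zfmir511, adjusted p = 0.014). None of these 4 was detected in tumor fins, so the filter sets their direction, and they were at least 1.101-fold to 1.181-fold lower there.

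None of the probes of miR-739_l, miR-733_l, miR-735 and miR-737_r was called in fins, where all were detected in tumor and control fins. miR-739_l zfmir450 had 0.86, 1.60 and 1.53 (mean 1.33, SE 0.23, adjusted p = 0.014), whereas zfmir449 had 0.06, 0.01 and 0.49 (mean 0.19, adjusted p = 0.48). miR-733_l had 3.83, -0.45 and 2.04 (zfmir348, adjusted p = 0.13) and 2.07, -0.09 and 1.61 (zfmir347, adjusted p = 0.087), with replicate 2 below 0 for both. miR-735_r had 0.60, -0.07 and 0.74 (adjusted p = 0.19), miR-735_l 0.46, -1.40 and 1.11 (adjusted p = 0.95), and miR-737_r 0.013, -1.621 and 1.195 (adjusted p = 0.87). In these 5 probes replicate 2 was again the lowest of the 3 fins.

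Markers of cell types are given beside the fin comparison, in which 7.55% of the 331 known probes tested were called. For any marker probe detected in control fins only, the filter sets the direction, as it does in the set. Of the skin epithelium probes 5 were tested and 0 were called, and their means lay between -1.95 and -1.35. Of 6 pigment cell probes 3 were higher in tumor fins, and the median was 2.69. Brain (16 tested), muscle (13) and leukocyte probes (6) had medians of -1.17, -1.09 and -1.27 with 1 called lower in each, the 3 erythroid probes had a median of -0.02, and of the early embryo probes 0 were tested. The part of these markers in the ratios was not tested.

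**Figure D4:**
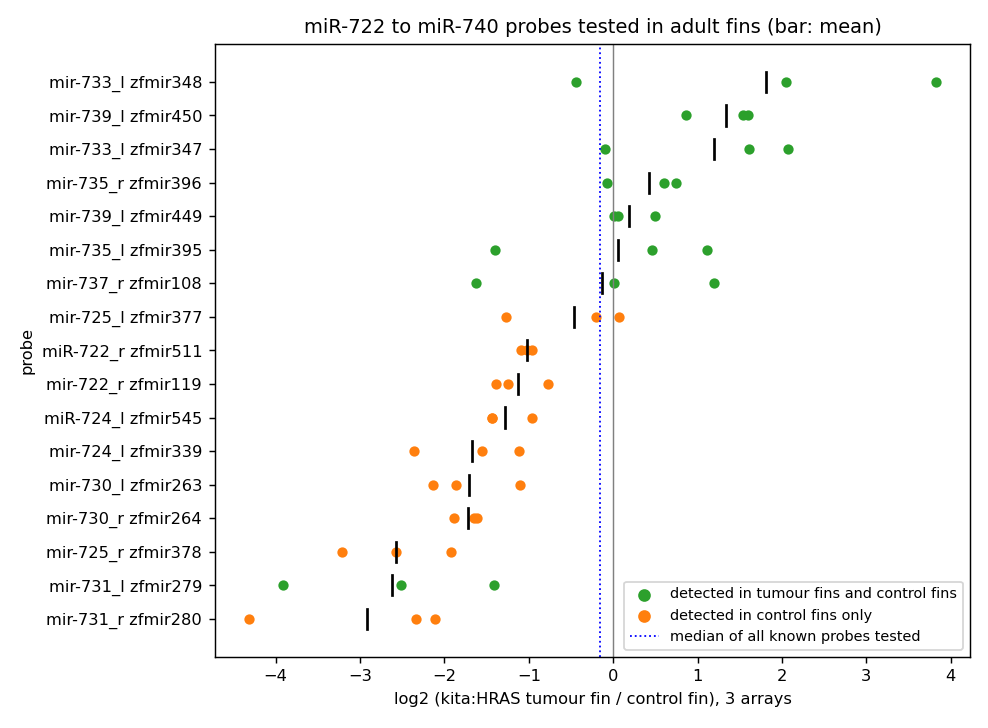
Log2(kita:HRAS tumor fin/control fin) on 3 arrays for the 17 probes tested in fins (points: arrays, bars: means), colored by whether the probe was detected in tumor fins and control fins or in control fins only, with the median of all known probes as a dotted line. The 9 probes detected in control fins only have means between -2.92 and -0.47, a direction that the filter sets, and both calls (miR-725_r and miR-730_r) are among them.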

How the data were processed

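Small RNA of 19 pairs of samples was measured on two-color Agilent arrays. The authors deposited scanner output from Agilent Feature Extraction (version 9.5.3.1 in the submitters' processing notes) holding for each spot the raw intensity, the intensity corrected for background and dye, the log10 ratio (red over green) and detection flags, plus a value table of the same log10 ratios. The deposited log10 ratio was turned into log2(HRAS/control), and a probe's value is the mean of its 2 spots, outlier spots left out. Probes that passed the background flag on most arrays of a comparison, in at least 1 channel, were tested with limma 3.58.1 in R 4.3.3: the 16 larval arrays in 1 fit with 5 group means, the adult arrays alone. Probes were called at an adjusted p (Benjamini-Hochberg, over all known probes tested) below 0.01 with a fold above 1.2. The methods state this fold on the log2 scale. It was taken here as linear, with log2 as an alternative, and the ratio error model that the methods name was not repeated. F tests came from the larval fit. Where the ratio of a spot below background in both channels was set to exactly 0 in the files (36.87% to 61.69% of the spots of an array), it was kept.

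Control levels came from median signals with normexp (offset 50), loess within and Aquantile between the arrays of 1 slide, and the deposited processed intensity scaled to its 75th percentile was the alternative. Tables and figures were made with Python 3.11.15, numpy 2.4.6, pandas 2.3.3 and matplotlib 3.10.9, and the fits were tested on simulated data. Replicate numbers were not taken to pair the samples. Every called probe is named with its values in the comparison that called it (plotted on every array for ratios). The tested other arm or second probe is given beside it. miR-462 and miR-727* are given for some comparisons only, and the rest by count. The probes, lists and alternatives were chosen with earlier results of these data known. Alternatives covered background correction, centering, filters, thresholds, the fit, blocks and leaving out each array, and 2 (a prior from known and predicted probes, and detection by 1 of 2 spots) were added after the data were seen.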

Additional observations from a re-analysis of the deposited data

Results flagged for a closer look

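miR-735_r, from the Y RNA locus, had a lower log2 ratio in hsp70:HRAS than in zic:HRAS larvae at 3 dpf (difference -0.5885), and every array of the first was below 0 while every array of the second was above. The difference of this pair was not tested by itself, and the F test over the 3 models at 3 dpf gave an adjusted p of 0.028. miR-730_r was below 0 in every tumor fin and above 0 on every array of zic:HRAS at 3 dpf (difference -1.963) and of kita:HRAS at 14 dpf (difference -1.986). miR-730_r was well above background in no tumor fin. The filter therefore sets its sign in fins, and the size of its fin ratio and of these differences is not measured. In kita:HRAS at 3 dpf its mean was -0.66, with -1.21 and -1.67 on the 2 larval arrays of slide 2, the slide of the fins, where neither channel was well above background. These differences were not tested, since adult and larval arrays were fitted apart and the groups compared lie on different slides. The 11 probes tested in the group of 4 arrays held 0 samples that stood far from the others by Dixon's test.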

How the results depend on the processing

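For the 38 probes, calls in kita:HRAS and zic:HRAS at 3 dpf stayed at 0 under every alternative run, and those of all other comparisons moved under at least 1. For hsp70:HRAS (1 call) there were 0 after centering, with 1.2 read as log2, fitted alone, with the replicate block, with the slide as a random block and with the prior from known and predicted probes, and 2 without a filter, at an adjusted p below 0.05 and with 1 of 2 spots. For 7 dpf (1) there were 0 after centering, with 1.2 as log2, fitted alone and with the slide block, and 4 with normexp and loess or at 0.05. For 14 dpf (6) there were 3 with both channels above background on every array, 1 with 1.2 as log2 or the slide block, and 0 fitted alone. For adult fins (2) there were 0 with normexp and loess, without a filter and with both channels above background, 9 after centering, 10 at 0.05, 13 with all 19 arrays in 1 fit and 8 with the wider prior. Each F test called 1 at 0.05. For 7 over 3 dpf controls (17) there were 5 with 1.2 as log2 and 7 with both slides, for 14 over 7 dpf (11) 7 with the processed red signal and 0 with 1.2 as log2, for fin over 3 dpf (1) 8 with the processed red signal, 4 at 0.05, 0 with 1.2 as log2 and 3 with both slides, and for heat shock (0) 1 at 0.05 and 1 with the wider prior. Counts with 1 array left out ranged from 0 to 1 (hsp70:HRAS), 0 to 0 (7 dpf), 0 to 4 (14 dpf), 0 to 9 (adult fins), 12 to 14 (7 over 3 dpf), 6 to 12 (14 over 7 dpf) and 0 to 7 (fin over 3 dpf, 7 without fin replicate 3). The cause was not tested. Counts of calls under an alternative or with 1 array left out, here and above, are of the set alone. They have no share of known probes beside them. Detection in kita:HRAS controls at 3 dpf was 18 with 1 of 2 spots, against 11. With the processed red signal the sign turned for miR-722_r at 7 over 3 dpf (zfmir511 -0.09181, zfmir119 -0.05553) and at 14 over 7 dpf for miR-724_l zfmir339 (0.03752) and miR-726_l (0.02184). Of 492 single-probe repeats of calls 344 kept direction and threshold, 4 turned and the others missed the threshold.

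Same-numbered larval arrays did not deviate together as a whole: 30 pairs correlated between -0.358 and 0.292 (median 0.01), 8 above 0.1, and 23 of 60 correlated best with their own number. Between kita:HRAS at 3 and 14 dpf, however, all 3 pairs were above 0.1 (0.196, 0.234 and 0.23). The replicate block gave 1 call at 7 dpf, 5 at 14 dpf, 14 for 7 over 3 dpf and 9 for 14 over 7 dpf. For fins over 3 dpf larvae no replicate block was run, because these arrays share 1 number only on slide 2. Of the comparisons with arrays of slide 2, kita:HRAS at 3 dpf, the fins and fin over 3 dpf had 11, 17 and 18 probes of the set tested, against 22 to 30 in the others.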
